A study of Bos taurus with 15 samples.

Results

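The junction genes of the blood-testis barrier were followed one by one in bovine testis, with the level of each gene in every animal. The 9 genes were CLDN11, CLDN3, OCLN, F11R, JAM3, TJP1, GJA1, CDH2 and CTNNB1. A probe belonged to a gene when the array's own gene name, gene number, accession or description named it. Under this rule 8 of the 9 genes had a probe, with 10 probes in all, and no probe was named for JAM3. The array named 15079 genes in total, of which 13454 were tested, and all 8 junction genes were among them.

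Testis RNA came from 15 cattle sampled at slaughter. The 7 controls were untreated, and the other 8 animals were given prednisolone, a synthetic glucocorticoid, at 30 mg per head daily by mouth for 35 days. Each animal had 1 single-colour array, and animals are named here by group and number. Slides 2 and 3 held only controls and slides 5, 6 and 7 only treated animals. Scan days 2, 3, 4 and 5 each held 1 group. For those arrays an effect of slide or scan day cannot be told apart from treatment. Whole testis was measured, so a lower level from fewer cells of a type cannot be told apart from less RNA per cell.

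Sertoli cells, the somatic nurse cells of the seminiferous tubule, seal themselves to one another near the base of the tubule. The seal combines tight junctions, gap junctions, desmosomes and an actin-rich adherens junction called the basal ectoplasmic specialisation. It shuts meiotic and postmeiotic germ cells off from blood and lymph, yet opens and closes again as young spermatocytes pass through it.

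A level is the log2 processed signal of a probe minus the 75th percentile of its array, averaged over the 2 spots of the probe. On 14 arrays, 82.2% to 89.9% of probes were well above background. On the array of prednisolone 30 the share was 36.5%, and its 75th percentile was 49.8 against 1220 to 2780 elsewhere. With each gene centred on the other arrays, the scanner values of prednisolone 30 correlated at 0.03 with its column in the authors' deposited table, against 0.892 to 0.974 for the other 14 arrays. Differences between groups are therefore given with and without this array, alone or together with control 17. Among the junction probes it was well above background on that array for CLDN11, GJA1, CDH2 and the first TJP1 probe. All 14 Sertoli cell markers tested, all 8 spermatocyte markers and all 11 spermatid markers were well above background on each of the other 14 arrays.

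None of the 8 junction genes differed between prednisolone and control animals beyond the spread between animals. In limma's two-sided test 0 of 8 had an adjusted p under 0.05, as did 0 of the 13454 genes tested (0%). At an unadjusted p under 0.05 the count was again 0 of 8, against 302 of all genes (2.24%). It stayed 0 of 8 without prednisolone 30 (4.08% of all genes), without that animal and control 17 (4.94%) and in the authors' deposited table (5.34%). The smallest adjusted p among the 8 was 0.876. Of the 8, 7 had a lower mean and 1 a higher mean in treated animals, where 45.5% of all genes were lower and 54.5% higher. Without prednisolone 30 the split was 6 lower and 2 higher (47.7% and 52.3% of all genes). Without control 17 as well, 3 were lower (48.8% of all genes), and 7 were lower in the deposited table (48.1%). The largest log2 differences were 0.48 for OCLN and -0.41 for CDH2, and the median of the 8 was -0.16, against 0.03 over all genes. For none of the 8 did the values of the groups separate without overlap.

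**Figure D1:**
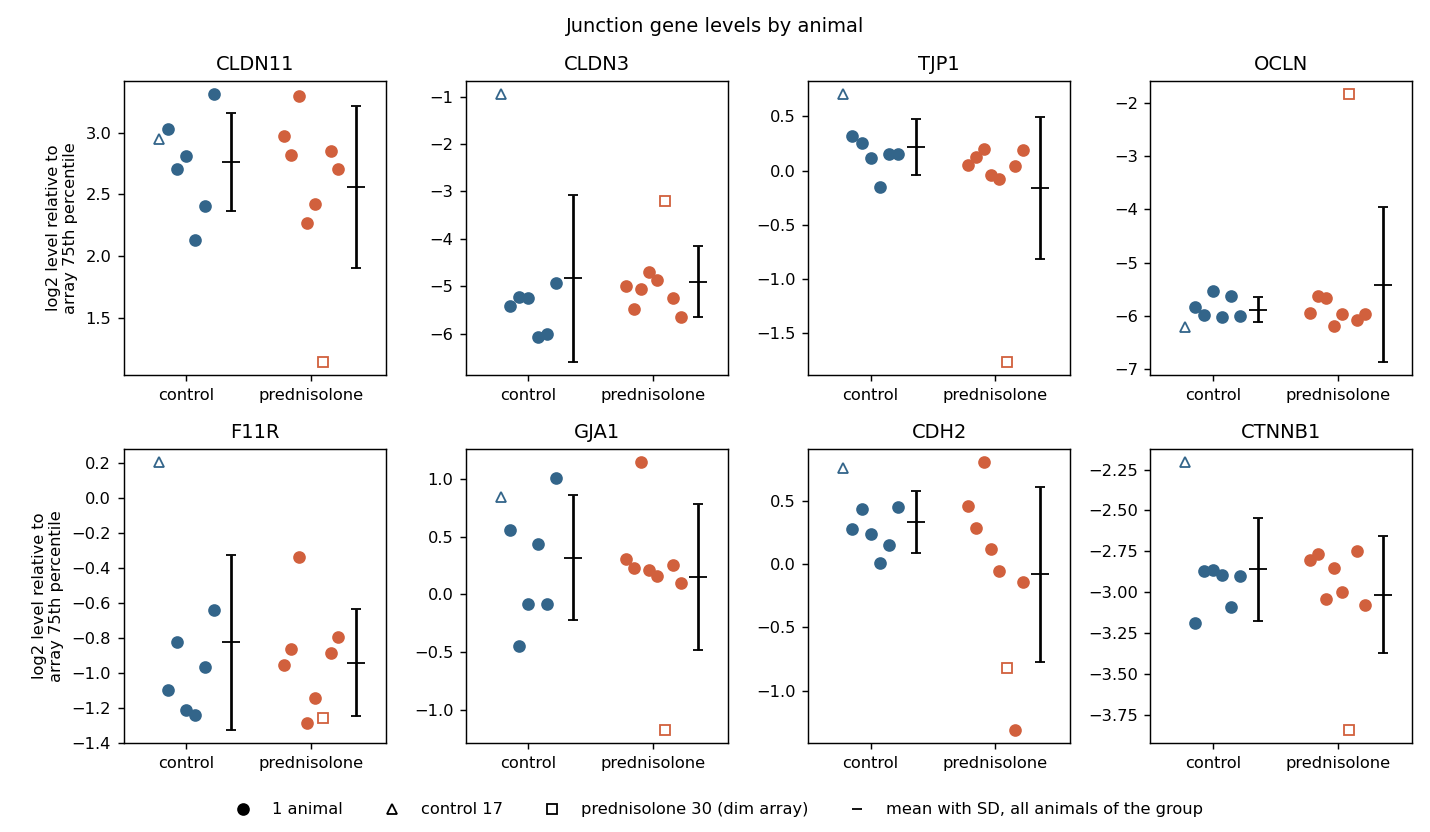
Level of the 8 junction genes in each animal, as log2 relative to the 75th percentile of the array, with controls on the left and prednisolone animals on the right of each panel. Bars give the mean with SD over all animals of a group. Control 17 (open triangle) stands above the other animals for CLDN3, F11R and CTNNB1, and prednisolone 30 (open square) stands apart for OCLN, TJP1 and GJA1.

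Claudins form the strands of tight junctions. CLDN11 is the claudin from which Sertoli cell strands are built, and mice without it lack these strands. In controls its log2 level was 2.13 at the lowest, 2.81 at the median and 3.31 at the highest. In prednisolone animals these were 1.14, 2.77 and 3.30. The groups overlapped over nearly their whole range, with controls 22 and 23 and prednisolone 28 and 29 low in their groups and control 24 and prednisolone 27 high. The lowest value of all belonged to prednisolone 30. The means were 2.76 ± 0.40 (SD, n = 7) and 2.56 ± 0.66 (SD, n = 8). Their difference was -0.20 (95% interval -0.79 to 0.38, limma adjusted p = 0.879). Without prednisolone 30 both means were 2.76 and the interval of the difference was -0.40 to 0.40.

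CLDN3 is a claudin that, in mice, joins the new junctions formed behind spermatocytes as they cross. Its level in controls was -6.07 at the lowest, -5.25 at the median and -0.96 at the highest. In prednisolone animals it was -5.64, -5.03 and -3.20. Control 17 held the highest value. It lay 13.4-fold above the highest of the other 13 animals, prednisolone 30 left out, and 19.6-fold above their median. Both spots of the probe gave it, with a log2 gap of 0.21 between them, and the authors' deposited table had control 17 at -1.14 against -6.06 to -4.62 in those 13. Control 18, hybridised on the same slide, had -5.41. The second highest value, of prednisolone 30, came from a spot pair not well above background, and in the deposited table that animal lay at -4.76, inside the range of the others.

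The comparison of CLDN3 between groups turned on these animals. Over all arrays treated minus control was -0.07 (interval -1.40 to 1.27, limma adjusted p = 0.978). Without control 17 it was 0.58 and without prednisolone 30 it was -0.31. Without both it was 0.34 (interval -0.10 to 0.77), and the unadjusted limma p was 0.119. In that last comparison the control mean was exceeded in 6 of 7 treated animals, and the exact two-sided permutation p was 0.162.

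OCLN encodes occludin, a second membrane protein of tight junction strands. It had 2 probes, both dim. The first gave controls between -6.21 and -5.54 with a median of -5.98. Treated animals lay between -6.20 and -1.84 with a median of -5.96. Apart from prednisolone 30, which held the value of -1.84 on a probe not well above background there, no animal stood out and the groups overlapped. The difference was 0.48 (interval -0.62 to 1.58) over all arrays and -0.04 (interval -0.31 to 0.24) without that array. In the deposited table it was 0.005, with the value of prednisolone 28 blank there. The second probe cleared background in 6 of 7 controls and 7 of 8 treated animals, and differed by 0.39 over all arrays and 0.09 without prednisolone 30.

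F11R encodes junctional adhesion molecule A, an immunoglobulin-type adhesion protein beside the strands, and the array lists it under its older symbol JAM1. Its level in controls was -1.24 at the lowest, -0.97 at the median and 0.20 at the highest. In treated animals it was -1.28, -0.92 and -0.34. Control 17 was again the highest, 1.46-fold above prednisolone 27, the next animal, and the remaining values interleaved. The difference was -0.12 (interval -0.57 to 0.34, limma adjusted p = 0.898), and 0.10 (interval -0.22 to 0.42) without control 17 and prednisolone 30.

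TJP1 encodes ZO-1, the scaffold that ties claudins and occludin to actin. The first of its 2 probes is described as transcript variant 2. Controls had -0.15 at the lowest, 0.16 at the median and 0.70 at the highest. Treated animals had -1.76, 0.05 and 0.20. Each of the 8 treated animals was below the mean of the controls, yet controls 20, 21, 22, 23 and 24 lay among or just above them and the groups overlapped. With control 17 left out of that mean, 6 of the 8 were below it. In the deposited table, control 17 included, 6 of the 8 were below the control mean. The difference was -0.38 (interval -0.93 to 0.17), with an unadjusted limma p of 0.16 and an exact two-sided permutation p of 0.096. Without prednisolone 30 it was -0.15 (interval -0.41 to 0.11), and without control 17 as well it was -0.07 (interval -0.29 to 0.14). In the deposited table it was -0.14.

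The second TJP1 probe, described as transcript variant 1, differed by 0.14 over all arrays and by -0.06 without prednisolone 30. The 2 probes ordered some animals differently. Control 17 was the highest of all animals on the first at 0.70 and the lowest control on the second at -2.88. Prednisolone 30 was the lowest of all on the first and, at -0.98 and not well above background, the highest of all on the second.

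GJA1 encodes the connexin Cx43, the main gap junction protein between Sertoli cells and between Sertoli and germ cells. Controls had -0.45 at the lowest, 0.44 at the median and 1.01 at the highest. Treated animals had -1.17, 0.22 and 1.14. Controls were spread, with 17 and 24 high and 20, 21 and 23 low. Of the treated animals 6 lay between 0.10 and 0.31, with prednisolone 27 above and prednisolone 30 below them. The SD was 0.54 in controls (n = 7) and, without prednisolone 30, 0.36 in treated animals (n = 7). The difference of means was -0.17 (interval -0.79 to 0.46, limma adjusted p = 0.894), and 0.02 (interval -0.46 to 0.50) without prednisolone 30.

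CDH2 encodes N-cadherin, the adhesion receptor of the basal ectoplasmic specialisation. Controls had 0.01 at the lowest, 0.28 at the median and 0.76 at the highest. Treated animals had -1.31, 0.03 and 0.80. The lowest value belonged to prednisolone 31, followed by prednisolone 30 at -0.82, and the highest to prednisolone 27, so treated animals spanned the controls on both sides. The means were 0.33 ± 0.24 (SD, n = 7) and -0.08 ± 0.69 (SD, n = 8). The difference of -0.41 (interval -0.98 to 0.15) had the smallest unadjusted limma p of the 8 genes, 0.141, and an exact permutation p of 0.163. Leaving out prednisolone 30 gave -0.31. The deposited table gave -0.30, and prednisolone 31 was lowest there too, at -1.42. Over the single-animal omissions the smallest unadjusted limma p was 0.0496 and the smallest adjusted p 0.81. The lower mean held in each of these omissions, between -0.54 and -0.24. Within the only slide holding 2 animals of each group it was -0.15, and within the scan day shared by 9 animals it was -0.66.

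CTNNB1 encodes beta-catenin, which links cadherins to the cytoskeleton and also carries Wnt signals. Controls had -3.19 at the lowest, -2.90 at the median and -2.21 at the highest. Treated animals had -3.84, -2.92 and -2.75. Control 17 was the highest and prednisolone 30 the lowest, and the 13 remaining animals lay between -3.19 and -2.75. The difference was -0.16 (interval -0.55 to 0.24) over all arrays and 0.07 (interval -0.14 to 0.29) without both animals.

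**Figure D2:**
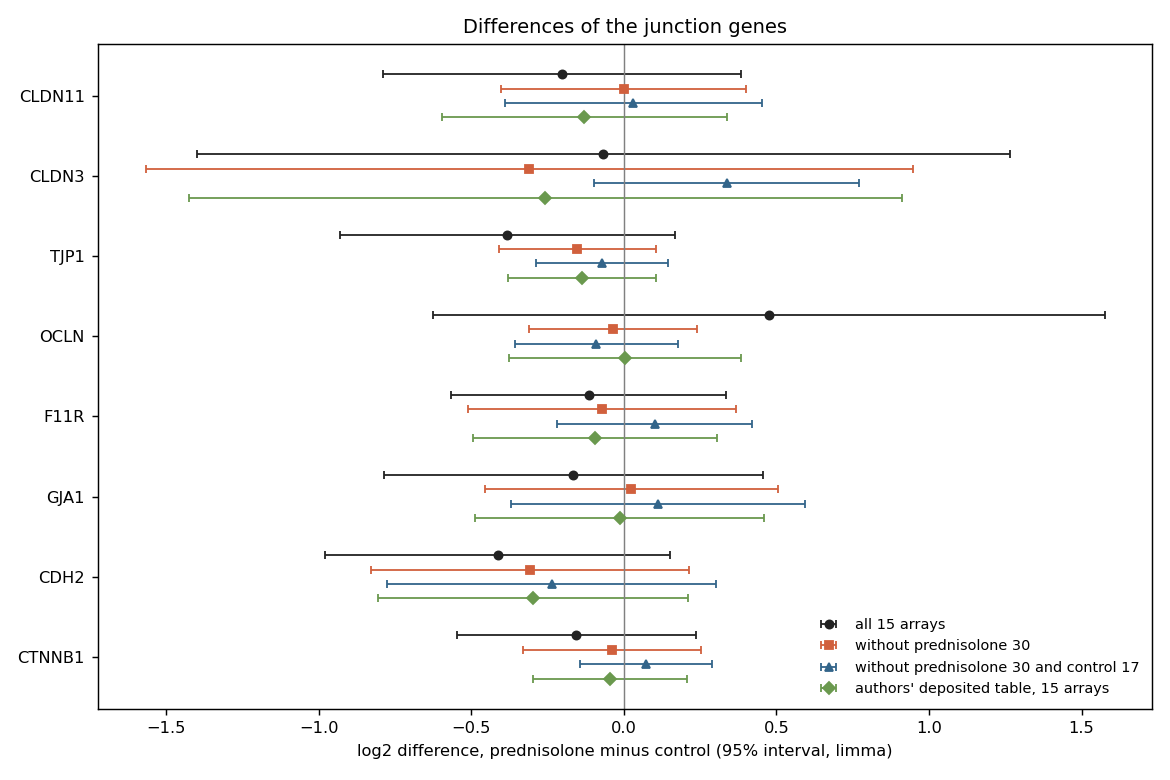
Difference of each junction gene in log2 units, prednisolone minus control, with 95% intervals from limma under 4 choices of arrays or values. Every interval spans 0, and the intervals of OCLN and CLDN3 shrink most when prednisolone 30, or that animal and control 17, are left out.

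The genes also differed in how much they varied from animal to animal within a group. Over 14 arrays, prednisolone 30 left out, the median within-group SD of all genes tested was 0.31. CLDN3 had 1.27, above 99.5% of genes, and without control 17 it had 0.40. CTNNB1 had 0.24, and without control 17 it had 0.14, with 3.78% of genes below it. Its spot error was 0.05, below that spread. For OCLN the SD between animals, 0.22, was below the spot error of 0.30, so differences between single animals were not resolved by this probe. TJP1 had 0.20 between animals against a spot error of 0.16, and without control 17 it had 0.14, below that error. Its second probe had 0.216 between animals against a spot error of 0.223. Without control 17, differences between single animals were thus not resolved by either TJP1 probe. CDH2 at 0.50 and GJA1 at 0.46 varied more between animals than 85.1% and 80.6% of genes, with spot errors of 0.15 and 0.16. Without prednisolone 31 the SD of CDH2 was 0.30.

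**Figure D3:**
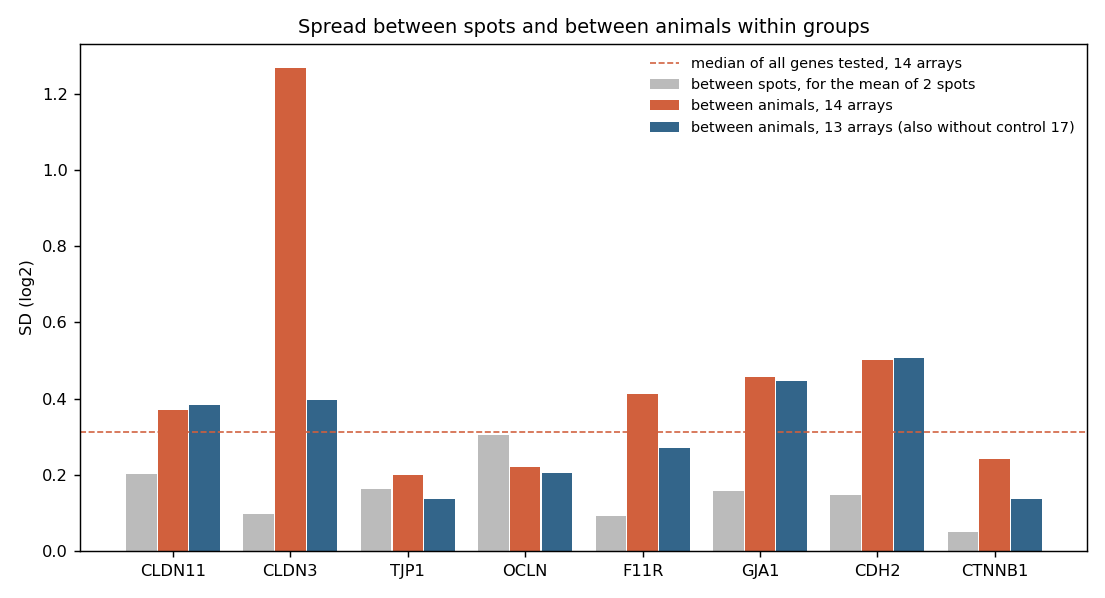
Standard deviation of each junction gene in log2 units, between the 2 spots (grey, as the error of their mean) and between animals of a group over 14 arrays (orange) or 13 arrays without control 17 (blue). The bar of CLDN3 falls from 1.27 to 0.40 without control 17. The spot error of OCLN exceeds its spread between animals, and that of TJP1 does so over the 13 arrays.

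Control 17 was the animal in which the junction genes stood out. Of the 14 animals, prednisolone 30 left out, it was highest for 4 of the 8 genes, namely CLDN3, TJP1, F11R and CTNNB1. TJP1 was counted by its first probe, and on the second, at -2.88, control 17 was the lowest control. It was within the range of the others for CLDN11, GJA1 and CDH2. For OCLN its value on the first probe, -6.21, was within the spot error of prednisolone 28 at -6.20, and on the second probe, at -5.28, it was the highest control. Over all genes tested control 17 was the highest animal for 19.7% and the lowest for 26.4%, against 1.61% to 11.1% and 1.46% to 9.32% in the other 13. Among 132 other genes of tight, adherens and gap junctions, desmosomes, polarity complexes and barrier signals, it was the highest for 45, or 34.1%. The next animal, prednisolone 27, was the highest for 22. Control 17 was also the lowest for 27 of them, or 20.5%.

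The largest of these gaps was in CLDN1, a claudin of many epithelia. Control 17 had 1.48 and the other 13 animals -4.72 to -3.05, which put it 23.2-fold above the next. The desmosome genes DSP (desmoplakin) and DSC2 (a desmosomal cadherin) were 2.51-fold and 4.13-fold above the next animal. In the same list control 17 was the lowest animal for PKP1, at -1.24 against -1.11 to 0.22, and within the range of the others for PKP3, PKP4 and PERP. Among the tight junction genes CLDN4, another epithelial claudin, control 17 had -5.40, inside the range of the others.

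Markers of other cell types moved with these values. The mean of the 11 epididymis and duct epithelium markers tested, centred on 0, was 1.25 in control 17 and -0.36 to 0.29 in the other controls. These 11 of the 20 listed were keratins, EPCAM, CDH1, CLDN4, CLDN7, PAX8 and ELSPBP1. CRISP1, LCN5, LCN8, DEFB1, PATE1, SPINT3, AQP9, RNASE9 and PAX2 were listed but not tested. KRT8 and KRT18, the keratins of simple epithelia, lay 2.87 and 2.62 log2 units above the median of the other 13 animals, KRT7 lay 2.72 above it, and PAX8, a transcription factor of reproductive duct and other epithelia, lay 4.24 above it. EPCAM, CDH1 and KRT5 lay within the range of those animals, as did ELSPBP1, an epididymal sperm-binding protein. The smooth muscle marker mean was 1.42 in control 17 and at most 0.27 in the other controls, the endothelial mean was 0.93 and the macrophage mean 0.82, against at most 0.05 and 0.30 in the other controls. Its spermatid and spermatocyte means were -0.84 and -0.41, each the lowest of the controls. The part of these tissues in the junction values was not tested.

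**Figure D4:**
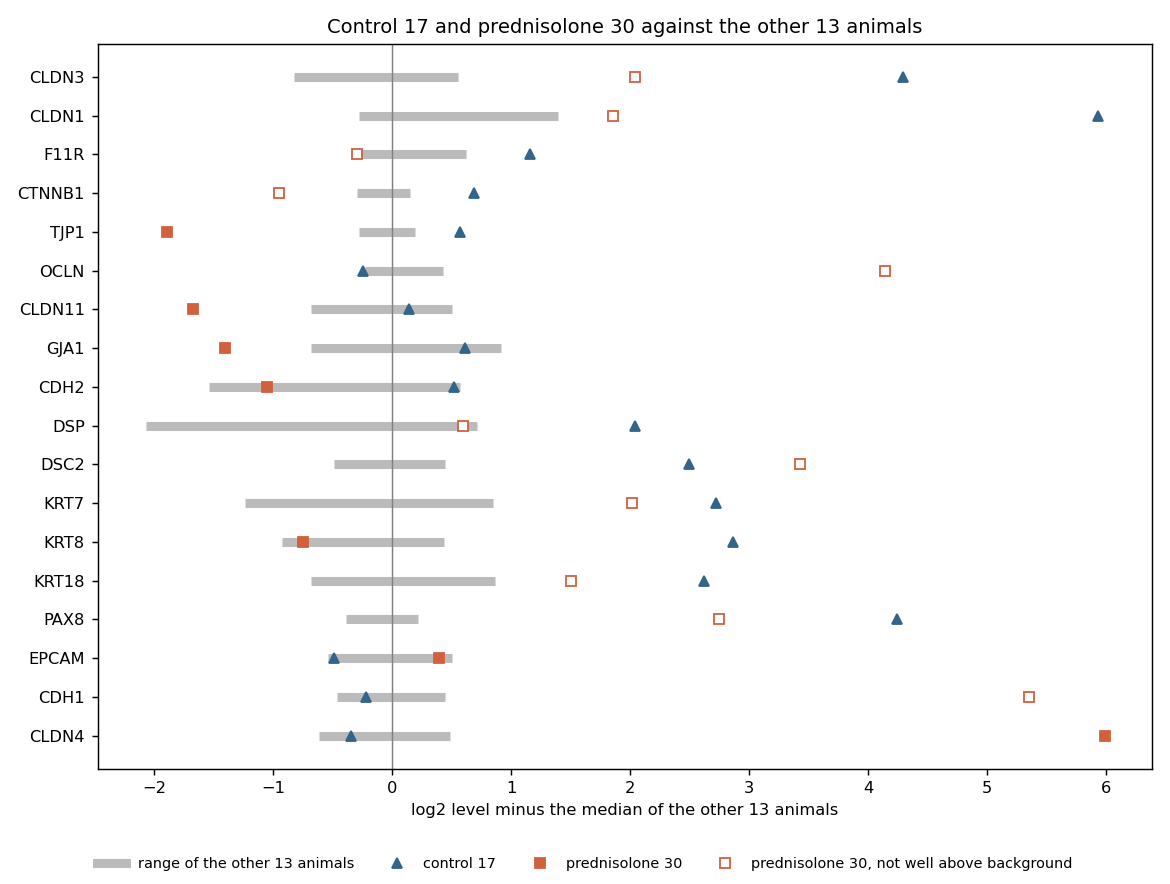
Level of the junction genes and of epithelial markers in control 17 (triangles) and prednisolone 30 (squares), in log2 units relative to the median of the other 13 animals, whose range is the grey bar. Control 17 lies far outside the bar for CLDN3, CLDN1, KRT8, KRT18, KRT7 and PAX8 and inside it for CLDN11, GJA1, EPCAM, CDH1 and CLDN4.

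Levels of the junction genes were compared across animals over 14 arrays, in 28 pairs. No pair had a Benjamini-Hochberg adjusted permutation p under 0.05. TJP1 and F11R came nearest, with Pearson r = 0.81 (permutation p = 0.00209, adjusted p = 0.059) and Spearman rho = 0.72 (permutation p = 0.00541, adjusted p = 0.136). Without control 17 r was 0.53, and without control 17 and control 22, the animals farthest from the median of TJP1, it was 0.44. Among the 8 animals of the shared scan day, which include control 17, r was 0.86. CLDN3 and CTNNB1 had r = 0.84 (permutation p = 0.0126) and rho = 0.39 (permutation p = 0.17), and without control 17 r was 0.29, so the relation rested on that animal.

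Each gene was also set against the mean of 5 marker lists, 40 relations in all over the same 14 arrays. Of these, 16 had an adjusted permutation p under 0.05 by Pearson's r and 0 by Spearman's rho, for which the smallest adjusted p was 0.069. Such relations were common in these animals. An absolute r of at least 0.6 was reached by 18 of the 40 (45.0%), and by 28.6% of the pairs of these lists with the genes tested that were in neither. With Sertoli cell markers the median absolute r was 0.43 for the 8 junction genes and 0.44 for those other genes. With the other lists it was 0.55 to 0.63 against 0.39 to 0.46, control 17 included. CLDN3 with smooth muscle markers had r = 0.81, and 0.23 without control 17. CLDN11 was higher in animals with a higher mean of 14 other Sertoli cell markers, with r = 0.75 (permutation p = 0.002, adjusted p = 0.0129) and rho = 0.75 (permutation p = 0.00246, adjusted p = 0.069). The r was 0.66 among controls and 0.86 among treated animals. It was 0.65 without the 2 animals farthest from the median of the marker mean and 0.62 among the 8 of these animals scanned on the shared day. CLDN11 also had r = -0.71 with spermatocyte markers (permutation p = 0.00471, adjusted p = 0.019), and with smooth muscle markers r was 0.55, and 0.74 without control 17.

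F11R had an adjusted permutation p under 0.05 by r with all 5 lists. Its r was 0.67 with Sertoli cell, -0.79 with spermatid, -0.74 with spermatocyte and 0.82 with duct epithelium markers. Without control 17 these were 0.69, -0.51, -0.64 and 0.49. F11R had r = 0.88 with smooth muscle markers (permutation p = 0.0005, adjusted p = 0.01) and rho = 0.66 (permutation p = 0.0126, adjusted p = 0.069), and without control 17 r was 0.68. Without control 17 and prednisolone 27 it was 0.54, and within the shared scan day, control 17 included, it was 0.92.

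GJA1 was highest in the 3 animals with the lowest spermatocyte marker means, which also had the 3 highest Sertoli cell marker means, 0.20 to 0.54. Over 14 arrays GJA1 had r = -0.83 with spermatocyte markers (permutation p = 0.00046, adjusted p = 0.01) and rho = -0.67 (permutation p = 0.0106, adjusted p = 0.069). The r was -0.80 among controls, -0.94 among treated animals and -0.70 without the 2 animals farthest from the median of the marker mean. With Sertoli cell markers GJA1 had r = 0.72 (permutation p = 0.00455, adjusted p = 0.019). The 3 animals, controls 17 and 24 and prednisolone 27, had spermatocyte means of -0.41 to -0.32 and GJA1 levels of 0.84 to 1.14. The other 11 had means of -0.12 to 0.31 and GJA1 levels of -0.45 to 0.56. Within these 11, a narrower range picked after the values were seen, r was -0.45 (permutation p = 0.166).

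**Figure D5:**
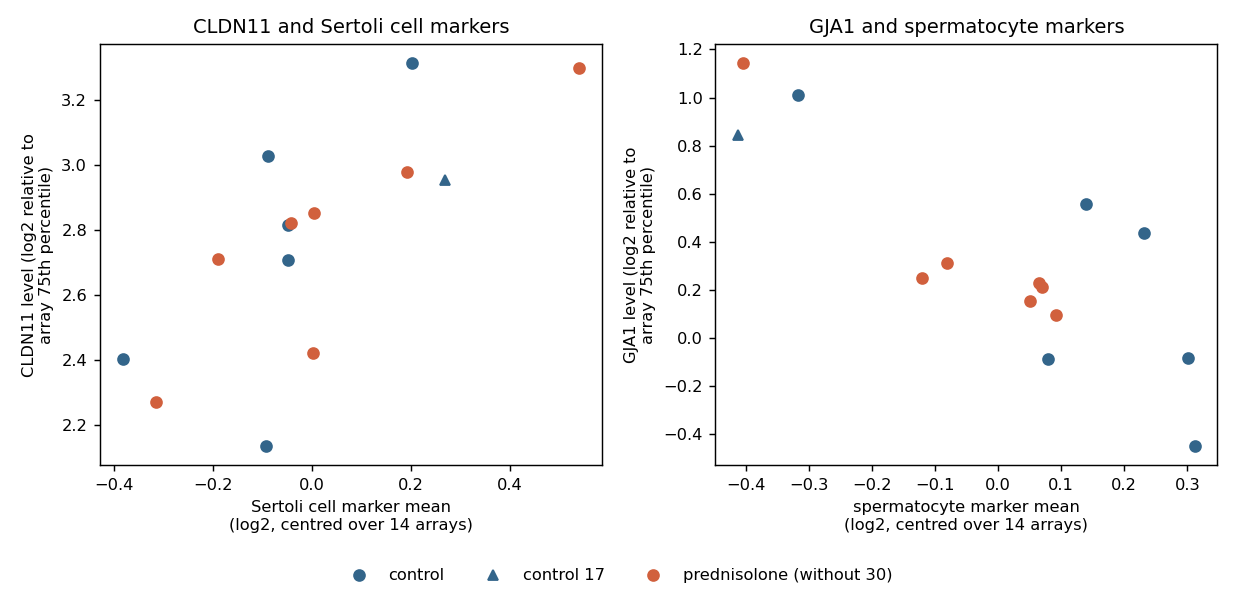
Level of CLDN11 against the mean of 14 Sertoli cell markers (left) and of GJA1 against the mean of 8 spermatocyte markers (right), 1 point per animal over 14 arrays, with log2 units on both axes. CLDN11 is higher where Sertoli markers are higher, and on the right 3 animals, with GJA1 at 0.84 to 1.14, stand apart from the other 11.

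For each junction gene, the genes with the most similar pattern were taken by Pearson r over the 14 arrays among 13169 genes. For CLDN11 they were SPRYD3, ATP1B2 and REG3G, with r of 0.90, 0.88 and 0.88. For GJA1 they were PSMD10, ARL6IP5 and CD63, with r of 0.92, 0.92 and 0.91, and for F11R MAP2K1, CNN1 and HLF, with r of 0.94, 0.93 and 0.93. TJP1 was most like LONRF3 at 0.94, followed by MAGI1, itself a tight junction scaffold, and FGFR2, both at 0.90. CDH2 was most like COX18, PTP4A1 and REEP5, with r of 0.94, 0.89 and 0.88. CTNNB1 was most like RPL17, FSTL1 and B3GNT8, at 0.93, 0.93 and 0.90. OCLN, whose probe did not resolve single animals, was like MRPL12 and IQGAP3, both at 0.78. For CLDN3 the nearest were SYTL1, LRRC59 and SLC9A5, each at 0.96, and without control 17 these r were 0.68, 0.56 and 0.58. Without that animal the r were 0.87, 0.76 and 0.73 for TJP1 and 0.76, 0.76 and 0.64 for CTNNB1. For F11R they were 0.84, 0.83 and 0.83, and for OCLN 0.75 and 0.73. For CLDN11, GJA1 and CDH2 they were 0.88 or above. These are the best of many genes over few animals, with no test.

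Other genes of the barrier were read from 6 lists, and 0 genes of any list had an adjusted p under 0.05. Among 28 other tight junction proteins, 19 had higher and 9 lower means in treated animals, with a median of 0.21. Without prednisolone 30 they split 12 and 16, with a median of -0.07. At an unadjusted p under 0.05 there were 2, with or without that array. TJP3, which encodes the scaffold ZO-3, had means of 0.07 in controls and 0.55 in treated animals, a difference of 0.48 (interval 0.10 to 0.85). It was 0.43 without prednisolone 30 and 0.35 without control 17 as well. AMOTL2, an angiomotin family protein, had -2.28 and -2.84, a difference of -0.56 (interval -0.99 to -0.13). It was -0.45 without prednisolone 30 and -0.33 without both animals. MAGI1 differed by -0.32, with an interval that included 0, and by -0.25 without prednisolone 30.

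Among 18 polarity genes, 7 were higher and 11 lower, with a median of -0.10 and 0 at an unadjusted p under 0.05. Without prednisolone 30 the split was 6 and 12, with a median of -0.06 and 1 gene at that level, PARD6A. PARD6A differed by 0.37 over all arrays and 0.42 without prednisolone 30. DLG1 differed by 0.32 over all arrays, where prednisolone 30 stood at 3.35, and by 0.10 without it. PARD3B and the small GTPase RAC1 differed by -0.36 and -0.33, and by -0.31 and -0.23 without that array.

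Among 39 genes of adherens junctions and the ectoplasmic specialisation, 21 were higher and 18 lower, with a median of 0.07. Without prednisolone 30 the split was 22 and 17, with a median of 0.02. LAMB3, a laminin chain, was the 1 gene at an unadjusted p under 0.05 over all arrays, with a difference of -0.37 (interval -0.73 to -0.002). Without prednisolone 30 it was -0.25 with an unadjusted limma p of 0.056, and 3 other genes were under 0.05. These were the kinase SRC, which differed by 0.31 there and 0.53 over all arrays, LAMA3 at 0.41 (0.28 over all arrays) and FSCN3 at 0.46 (0.31). The SRC probe was dim, with a control mean of -6.18. LAMA3 and FSCN3 were named after their values were seen. The focal adhesion protein ZYX differed by 0.33 and the integrin chain ITGA6 by -0.36, and by 0.24 and -0.24 without that array.

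The connexins and pannexins other than GJA1 split 8 higher and 5 lower of 13, with a median of 0.28, and 7 and 6 without prednisolone 30, with a median of 0.01. GJD2 differed by 0.47 over all arrays, by 0.24 without prednisolone 30 and by 0.11 without control 17 as well. GJB5 differed by -0.41 and, without prednisolone 30, by -0.40. GJB6 differed by -0.47, by -0.77 without prednisolone 30 and by -1.01 without both animals. The probes of GJD2 and GJB6 were dim, with control means of -5.93 and -5.80. At an unadjusted limma p under 0.05 there were 0 of 13 over all arrays and 0 in the deposited table. There was 1 (7.69%) without prednisolone 30, and 3 (23.1%) without both animals, where the share of all genes was 4.94%.

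Of 9 desmosome genes, 6 were higher and 3 lower, with a median of 0.12, and 3 were higher and 6 lower without prednisolone 30, with a median of -0.14. DSC3, which cleared background in 3 of 7 controls and 4 of 8 treated animals, differed by 1.096 (interval -1.31 to 3.51), and by 0.51 without prednisolone 30. PKP1 and DSP differed by 0.33 and -0.70, and by 0.26 and -0.83 without that array. PKP4 differed by -0.27 over all arrays and by -0.10 without it.

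Of 25 genes for signals known to act on the barrier, such as cytokines, transforming growth factors and androgen signalling, 16 were higher and 9 lower, with a median of 0.08. Without prednisolone 30 this turned to 10 higher and 15 lower, with a median of -0.02. IL6, which encodes the cytokine interleukin-6, was the 1 gene at an unadjusted p under 0.05. Controls averaged -7.33 ± 0.68 (SD, n = 7) and treated animals -5.64 ± 1.50 (SD, n = 8), a difference of 1.69 (interval 0.48 to 2.90, limma adjusted p = 0.876), and 1.38 without prednisolone 30. The probe cleared background in 3 of 7 controls and 7 of 8 treated animals. It thus passed the filter mainly through the treated animals, and most control values were not well above background. Its p is therefore no support for a difference. The cytokine receptor TNFRSF1A differed by 0.28, TGFB3 by -0.27 and the Wnt pathway scaffold AXIN1 by -0.21. Without prednisolone 30 these were 0.27, -0.18 and -0.11. The share of all genes at an unadjusted p under 0.05 was 2.24%, and these lists held between 0 and 2 such genes each (0% to 7.14%). Without prednisolone 30 the share was 4.08%, and the lists held between 0 and 3. That was 5.56% to 7.69% of the tight junction, polarity, adherens junction and gap junction lists, 0% of the desmosome list and 4% of the signal list.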

How the data were processed

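The deposited scanner files hold spot intensity, written by Feature Extraction 9.5.1.1 per the file headers, as background-subtracted and detrended processed signal. A second deposited file holds a matrix of the authors' intensity values for these arrays, made by scaling that no source used here gives. The submitters' processing notes name R 2.11.1. Control spots were dropped (21475 probes remained), outlier spots masked and spots averaged. Values are log2, minus each array's 75th percentile. The test covered the 18492 probes that cleared background on 7 or more of all 15 arrays, whatever their group. A gene was read through its brightest probe. Names came from the array's identifiers and a bovine gene table of assembly ARS-UCD2.0, which named 16351 probes. No source used here gives the genome build of the array design, so coordinates are left out.

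The group comparison used limma 3.58.1 under R 4.3.3 (two-sided, Benjamini-Hochberg adjustment over all probes tested, threshold 0.05), and single genes by two-sided exact permutation over 6435 splits. On simulated data for the comparison over all 15 arrays, limma recovered 55.2% of genes shifted by 1 log2 unit and 87.3% of those shifted by 2. The simulation drew independent normal noise for each gene and held no outlying array. These shares therefore need not hold for the measured arrays. Correlations used 100000 two-sided permutations in Python 3.11.15. The number of arrays limits the precision. Named list genes are the 2 higher and 2 lower with the smallest p, and genes of like pattern are the 3 with the highest r. The values of 3 genes under these rules are not reported here. For control 17, CLDN1, CLDN4, DSC2, PKP3, PERP and the list genes DSP, PKP1 and PKP4 were named after their values were seen. The members and lists were chosen with earlier results of these data known. Alternatives covered scaling, background, filters, masking, slide, scan day, array weights and omissions.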

Additional observations from a re-analysis of the deposited data

Results flagged for a closer look

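In 30 sets of values (10 junction probes and the marker means, by group), 13 held an animal whose gap to its nearest neighbour was large for the group's range by Dixon's ratio, where chance gives about 1.5 or 1 in 20. All 13 were control 17 or prednisolone 30.

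Control 17 stood apart for CLDN3 at -0.96 (nearest animal -4.93), F11R at 0.20 (nearest -0.64) and CTNNB1 at -2.21 (nearest -2.86). Its smooth muscle marker mean was 1.42 (nearest 0.27) and its epididymis and duct epithelium mean 1.25 (nearest 0.29).

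Prednisolone 30, the dim array, stood apart for CLDN3 at -3.20 (nearest animal -4.70), the first TJP1 probe at -1.76 (nearest -0.08) and the second at -0.98 (nearest -2.30). It also did for OCLN at -1.84 (nearest -5.63), GJA1 at -1.17 (nearest 0.10) and CTNNB1 at -3.84 (nearest -3.08). Its spermatocyte marker mean was -0.97 (nearest -0.40) and its duct epithelium mean 1.84 (nearest 0.30). In the authors' deposited table this animal lay at 0.14 for the first TJP1 probe, -5.69 for OCLN and -4.76 for CLDN3. For these, GJA1 and CTNNB1 it lay there within the range of the animals other than control 17.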

How the results depend on the processing

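No junction gene passed the threshold in any alternative run, and the smallest adjusted p of any gene tested was 0.105. All values below are log2 differences that did not pass, and the cause of each change was not tested. TJP1, read through its first probe, and CDH2 were lower with prednisolone in every alternative run, by -1.08 to -0.07 and by -0.66 to -0.15. The second TJP1 probe differed by 0.14 over all arrays and by -0.06 without prednisolone 30. With slide as a block that probe differed by 0.38, and with scan day as a block by 0.35. The median difference of the 8 genes was -0.35 with slide as a block and -0.41 with scan day as a block, against -0.16 without. The first TJP1 probe then differed by -0.68 and -0.63, GJA1 by -0.43 and -0.46, and CDH2 by -0.32 and -0.66. With normexp background correction CLDN3 turned to 0.017, F11R to 0.031 and CTNNB1 to 0.080. With array weights CLDN11 was 0.0073, CLDN3 0.053, OCLN -0.050, F11R 0.081, GJA1 0.015 and CTNNB1 0.066. Without prednisolone 30 and control 17 together CLDN11 was 0.032, CLDN3 0.34, OCLN -0.090, F11R 0.10, GJA1 0.11 and CTNNB1 0.072. Within slide 4, with 1 control, CLDN3 was 1.97. In the deposited table with prednisolone 30 left out, an alternative chosen after seeing the data, OCLN was -0.032 and GJA1 0.018.

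Leaving out 1 animal at a time gave CLDN11 -0.31 to 3.3e-05, CLDN3 -0.31 to 0.58, OCLN -0.035 to 0.59, F11R -0.20 to 0.056 and GJA1 -0.31 to 0.024. The sign turned without prednisolone 30 for CLDN11, OCLN and GJA1, without control 17 for F11R, and without control 17, prednisolone 26 or prednisolone 32 for CLDN3.

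The count of all genes at an unadjusted p under 0.05, 302 over all arrays, was 185 without control 22 and 549 without prednisolone 30, the lowest and highest of the single omissions. It was 72 with normexp, 718 in the deposited table and 615 there without prednisolone 30, 872 with array weights, 103 within scan day 1, 5 within slide 4 and 665 without both animals. No paired analysis was possible because the groups share no animal numbers. Where a probe was not well above background on the array of prednisolone 30, its value there is not a measured level.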
